A study of Mus musculus with 36 samples.

Results

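The genes described here are 44 mouse genes of ribosome biogenesis and RNA polymerase I transcription, out of 27179 genes in the deposited count table. They were taken by name from a list of nucleolar rRNA processing and Pol I factors that are known as MYC targets. The rule uses names only, and it was set with earlier results of these data known. Grouped by role, 7 belong to Pol I transcription, 9 to small nucleolar ribonucleoproteins (snoRNPs) and their assembly, 10 to assembly of the small ribosomal subunit and 12 to assembly of the large subunit, while 6 code for multifunctional nucleolar proteins. All 44 were expressed above the limit for testing in these cells.

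The genes were followed through 36 RNA sequencing libraries of 3 mouse lymphoma cell lines, AH47A, 287 and 621. All 3 carry the Em-myc background, a Myc transgene under an immunoglobulin heavy chain enhancer that produces B cell lymphomas, so that the controls carry it too. Each line expressed 1 of 6 constructs: a negative control, or a mutant TRP53 protein labelled G280, I192S, R246Q, R270H or V170M, which the design text calls human. Each construct was sampled untreated and after 12 hours of 5 µM nutlin-3a, which releases the cells' own p53 from MDM2, given together with 25 µM of the caspase inhibitor QVD-OPH. The labels leave unsaid if the untreated cells had QVD-OPH as well, so effects of the 2 agents cannot be told apart. The 12 combinations of construct and treatment hold 1 library per line each (n = 3), and nothing in the labels names a repeat culture of a line. The comparisons ask how these genes respond to nutlin, and how an expressed mutant changes that response.

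Ribosome production starts in the nucleolus, where Pol I transcribes the ribosomal DNA into a long precursor rRNA. Small nucleolar RNAs guide the chemical modification of this precursor, and processing factors and helicases cut, fold and assemble it with ribosomal proteins into the small and large subunits. MYC raises the transcription of many of these genes in lymphoma cells, and p53 is known to restrain Pol I. When ribosome assembly is disturbed, free ribosomal proteins bind MDM2, which links the nucleolus to p53.

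The libraries held 5404113 to 10718302 counts, and the lowest count of any of the 44 genes in any library was 170. The B cell markers Cd79a, Cd79b, Pax5 and Ebf1 were expressed, with highest values over the 36 libraries of 430, 284, 143 and 181 CPM (counts relative to the library size after TMM scaling), while Ms4a1 reached 9 CPM at most. The 5 myeloid markers summed to 3.78 to 53.8 CPM, mostly Itgam, and in AH47A and 287 every nutlin library lay above every untreated one, while in 621 the ranges overlapped (median 5.06 CPM untreated and 11.1 CPM under nutlin). The 6 T cell markers summed to 0 to 21.8 CPM, almost all Zap70, with Cd4 at 0 in every library, and the 287 line rose from 4.85 to 6.59 CPM untreated to 14.7 to 21.8 CPM under nutlin. The 4 erythroid markers reached 3.84 CPM, the 4 fibroblast markers 2.87 CPM with Col3a1 at 0 throughout, and the 4 plasma cell markers 18.8 to 75.9 CPM, mostly Sdc1. These marker shifts move with treatment, and their part in the results below was not tested. In bulk RNA, fewer cells of a type and less RNA per cell cannot be told apart.

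A pair of libraries stood apart from the rest of their line. The AH47A nutlin libraries of I192S and V170M deviated together from the other AH47A nutlin libraries (r = 0.771 over 7504 genes, a description with no test). The 621 nutlin libraries also deviated in pairs, at lower r (0.504, 0.459 and 0.435). The share of genes over 0.5 log2 from the median of line and treatment was 3.37% in I192S and 2.55% in V170M. It was higher in the nutlin libraries of AH47A control (4.08%), 621 control (4.49%) and 621 G280 (3.93%). Among the 44 genes, Npm1 stood at 812 and 713 CPM in them against 424 to 447 CPM in the other 4 AH47A nutlin libraries, and Nop10 at 176 and 153 CPM against 88.0 to 93.4 CPM. Fbl was lower in them, at 72.0 and 81.5 CPM against 108 to 120 CPM. Calls of named genes that were lost without these 2 libraries are given with both values. Counts of members without these libraries are given without the share of all genes called, so they are not set against that background.

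The 44 genes span a wide range of expression per length. On the RPKM scale (CPM divided by the deposited gene length in kilobases), the untreated median over 18 libraries was highest for Ncl, the abundant nucleolar RNA-binding protein nucleolin, at 556 RPKM (501 to 666). Nolc1, a snoRNP chaperone of the nucleolus and Cajal bodies, followed at 392 RPKM (241 to 446), and Nop58, a core protein of box C/D snoRNPs, at 260 RPKM (233 to 281). The ranges of Nolc1, of Nop58, of Mybbp1a (254 RPKM, 236 to 275) and of Nhp2 (250 RPKM, 225 to 282) overlap, so their order is not set by these data. Pol I components stood lower: Polr1a, the largest subunit of the enzyme, had 61.9 RPKM (57.6 to 75.1), Polr1b, the second largest, 60.4 RPKM (54.1 to 74.1), and Rrn3, the initiation factor that brings Pol I to the promoter, 49.1 RPKM (46.5 to 58.1). The lowest median of the 44 belonged to Polr1e, a Pol I subunit, at 19.9 RPKM (17.4 to 24.0). Counts of Npm1, which has many processed pseudogenes, and of genes with such copies in general are uncertain because no source used here gives the handling of ambiguous reads.

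The promoters of Rrn3 and Imp4 are shown. Of the genes picked by rule for the control response, only these hold the E-box CACGTG before the start. They moved in opposite directions under nutlin, which was not part of the rule. The E-box is a palindromic sequence that MYC and MAX are known to bind, and it reads the same on both strands. Nop2, called lower but not picked by the rule, also holds an E-box, beginning 60 bases before the start. Of the 44 genes, 38 had an entry in the RefSeq promoter table (GRCm38.p6, windows of 300 bases, 250 before and 50 after a gene's start). The E-box was present for 8 of the 38 (21.1%) and for 8.09% of all 27025 genes in the table. The 8 are Rrn3, Utp20, Wdr43, Imp4, Tsr1, Pes1, Nop2 and Mybbp1a. In Utp20, Wdr43, Tsr1, Pes1 and Mybbp1a the E-box does not lie wholly before the start. The 44 were listed as known MYC targets, so the difference from all genes is not read as a result. The letters TTTGAA, the cell cycle homology region (CHR) that the DREAM complex is known to use, searched on both strands, were present for 5 of the 38 (13.2%) and for 20.2% of all genes. The sequences below run 5′ to 3′ on the gene's strand, with the E-box in capitals. The first is the whole 250 bases before the start of Rrn3 (chr16:13780449-13780698, plus strand), with E-boxes beginning 215 and 48 bases before the start. The other is a stretch of 126 bases before the start of Imp4 (chr1:34439648-34439773, plus strand), with its E-box beginning 121 bases before the start.
Rrn3: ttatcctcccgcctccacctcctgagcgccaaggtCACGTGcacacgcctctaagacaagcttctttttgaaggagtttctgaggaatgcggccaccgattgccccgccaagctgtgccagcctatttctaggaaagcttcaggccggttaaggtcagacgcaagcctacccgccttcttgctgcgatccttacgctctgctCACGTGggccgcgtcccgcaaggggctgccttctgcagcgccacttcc
Imp4: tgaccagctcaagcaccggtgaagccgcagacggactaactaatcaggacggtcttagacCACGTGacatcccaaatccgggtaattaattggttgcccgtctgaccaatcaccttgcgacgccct
A match of letters is a description of the sequence and shows no binding. The 8 genes with an E-box included members that rose under nutlin in control cells (Rrn3, Utp20), members that fell (Imp4, Nop2) and 4 without a call.

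In control cells, some of the 44 genes were lower after nutlin and Rrn3 was higher. At an adjusted p under 0.05 (edgeR quasi-likelihood test over 12321 genes, cell line as an additive term), 13 of the 44 genes were lower and 4 were higher, and the other 27 did not pass. Over all genes tested, 20.8% were called lower and 21.9% higher. The members' median log2 fold change was -0.19, against -0.01 over all genes. Ubtf, Polr1b, Nhp2, Nop10, Nop16 and Ppan were among the genes that fell, and Rrn3 rose 2.51-fold. The additive model treats the libraries of a line as independent, and without the 287 line the counts were 5 lower and 1 higher. Leaving out a line also removes libraries, and the share of all genes then called is not given here. These counts are therefore not read as a trait of the members. Without the 2 libraries that stood apart 15 were lower, with Rrp9 (adjusted p = 0.0376) and Wdr12 (0.0487) added.

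Among the 7 Pol I genes, Rrn3 was higher and Ubtf and Polr1b were lower. Rrn3 stood at 202, 185 and 176 CPM in the untreated control libraries of AH47A, 287 and 621, and at 404, 628 and 410 CPM under nutlin. All nutlin values lay well above all untreated ones, the highest being that of 287. The log2 fold change was 1.33 ± 0.19 (SE, n = 3 lines; edgeR adjusted p = 8.78e-06), and the call held in all 16 alternative analyses (adjusted p up to 0.00384). Ubtf codes for UBF, the architectural factor that keeps ribosomal genes in an open state. Its level went from 530, 501 and 580 CPM to 351, 185 and 412 CPM, without overlap and with the deepest drop in 287. This was a log2 change of -0.83 ± 0.20 (adjusted p = 0.00228, 0.114 without the term for cell line). Polr1b went from 236, 228 and 290 CPM to 179, 144 and 223 CPM, lower in each line although the treated 621 value lay close to the untreated values of the other lines. Its log2 change was -0.48 ± 0.12 (adjusted p = 0.00202, 0.054 without 287). Polr1a, by contrast, had 439, 391 and 374 CPM before and 391, 293 and 413 CPM after treatment, and the groups overlapped. Its log2 change of -0.14 ± 0.10 did not pass (adjusted p = 0.231). Polr1c, a subunit shared by Pol I and Pol III, at 0.33 ± 0.15 (adjusted p = 0.067), Polr1e at -0.28 ± 0.15 (adjusted p = 0.14) and Tcof1, the nucleolar protein treacle, at -0.18 ± 0.08 (adjusted p = 0.0697) did not pass either.

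Of the 9 snoRNP genes, 3 were lower and 1 higher. The lower ones were Nhp2 and Nop10, both core proteins of the H/ACA snoRNPs that carry out pseudouridylation, and Nolc1. Nhp2 went from 267, 247 and 242 CPM to 186, 110 and 163 CPM, and no treated value reached an untreated one. Its log2 change was -0.75 ± 0.17 (edgeR adjusted p = 0.0011), a 1.69-fold decrease that kept its call in all 16 alternative analyses. Nop10 went from 114, 109 and 181 CPM to 88.0, 47.2 and 72.7 CPM. This was the largest fall of the 44 by fold (1.96-fold), but with the widest error, at -0.97 ± 0.31 (adjusted p = 0.0156). It did not pass without 287 (adjusted p = 0.145) or without 621 (adjusted p = 0.229). The other H/ACA proteins, Dkc1 (the pseudouridine synthase dyskerin) at -0.39 ± 0.17 and Gar1 at -0.19 ± 0.09, were not called. Of the box C/D proteins, which guide ribose methylation, Nop58 rose by 0.21 ± 0.08 (adjusted p = 0.0381, 0.345 without 287 and 0.107 without 621). The methyltransferase Fbl (fibrillarin) went from 136, 115 and 103 CPM to 120, 82.4 and 123 CPM, with overlapping groups and a log2 change of -0.14 ± 0.17 (adjusted p = 0.538). Nop56 was at -0.00 ± 0.08 and Rrp9, a protein of a processing snoRNP, at -0.42 ± 0.18 (adjusted p = 0.0703). Nolc1 changed by -0.53 ± 0.19 (adjusted p = 0.0285), and not past the threshold without AH47A (0.159) or 287 (0.271).

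The 10 small subunit genes split, with 2 called in each direction. Imp4, a component of the early small subunit processome, went from 158, 151 and 154 CPM to 101, 83.3 and 129 CPM, all treated values below all untreated ones. Its log2 change was -0.59 ± 0.15 (edgeR adjusted p = 0.00311, 0.0754 without AH47A). Its partner Imp3 changed by -0.57 ± 0.22 (adjusted p = 0.0364, 0.146 without 287 and 0.256 without 621). Utp20, a very large scaffold protein of the processome, rose from 319, 539 and 323 CPM to 355, 675 and 478 CPM, higher in each line although the ranges overlap. Its log2 change was 0.35 ± 0.11 (adjusted p = 0.0106), and the adjusted p was 0.0767 without 287 and 0.148 without 621. Nop14, another processome protein, rose by 0.30 ± 0.12 (adjusted p = 0.045), and lost its call without 287 (0.241) or without 621 (0.256). Heatr1, Wdr43, Nat10 (the acetyltransferase of small subunit rRNA), Rrp12, Ddx10 and Tsr1 lay between -0.30 and 0.14 without a call.

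Among the 12 large subunit genes, 6 were lower and 0 higher, and 11 of the 12 point estimates were negative. Ppan, a factor of early large subunit particles, went from 289, 293 and 281 CPM to 173, 168 and 243 CPM, without overlap. Its log2 change was -0.58 ± 0.13 (edgeR adjusted p = 0.00137, 0.0525 without AH47A and 0.057 without 287). Nop16 went from 118, 112 and 118 CPM to 73.5, 41.1 and 91.6 CPM, again without overlap, a log2 change of -0.82 ± 0.23 (adjusted p = 0.00525, 0.0501 without AH47A). Nip7 changed by -0.56 ± 0.16 (adjusted p = 0.00815, 0.0895 without 287 and 0.0656 without 621), Rrp1b by -0.44 ± 0.13 (0.00696, 0.0521 without 621) and Nop2, an rRNA methyltransferase, by -0.24 ± 0.09 (0.0389, 0.253 without AH47A and 0.348 without 287). Bop1, which forms the PeBoW complex with Pes1 and Wdr12, changed by -0.51 ± 0.18 (adjusted p = 0.0246, 0.191 without 287 and 0.146 without 621), while Pes1 at -0.19 ± 0.11 and Wdr12 at -0.29 ± 0.13 did not pass. The remaining factors, Wdr74, Rrs1, Ddx18 and Mrto4, lay between -0.24 and 0.03 without a call.

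None of the 6 multifunctional nucleolar genes was called in control cells at the adjusted threshold. Lyar, a nucleolar zinc finger protein, had the smallest adjusted p of them, 0.113, at -0.42 ± 0.21. Ncl had 5290, 4460 and 4610 CPM untreated and 4410, 3080 and 4640 CPM under nutlin, lower in AH47A and 287 and nearly level in 621 (log2 -0.27 ± 0.15, edgeR adjusted p = 0.159). Npm1, nucleophosmin, a histone and ribosome chaperone, had 386, 415 and 492 CPM before and 447, 492 and 379 CPM after treatment, higher in AH47A and 287 and lower in 621 (0.03 ± 0.24, adjusted p = 0.941). Gnl3, Ddx21 and Mybbp1a lay between -0.10 and 0.02.

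**Figure D1:**
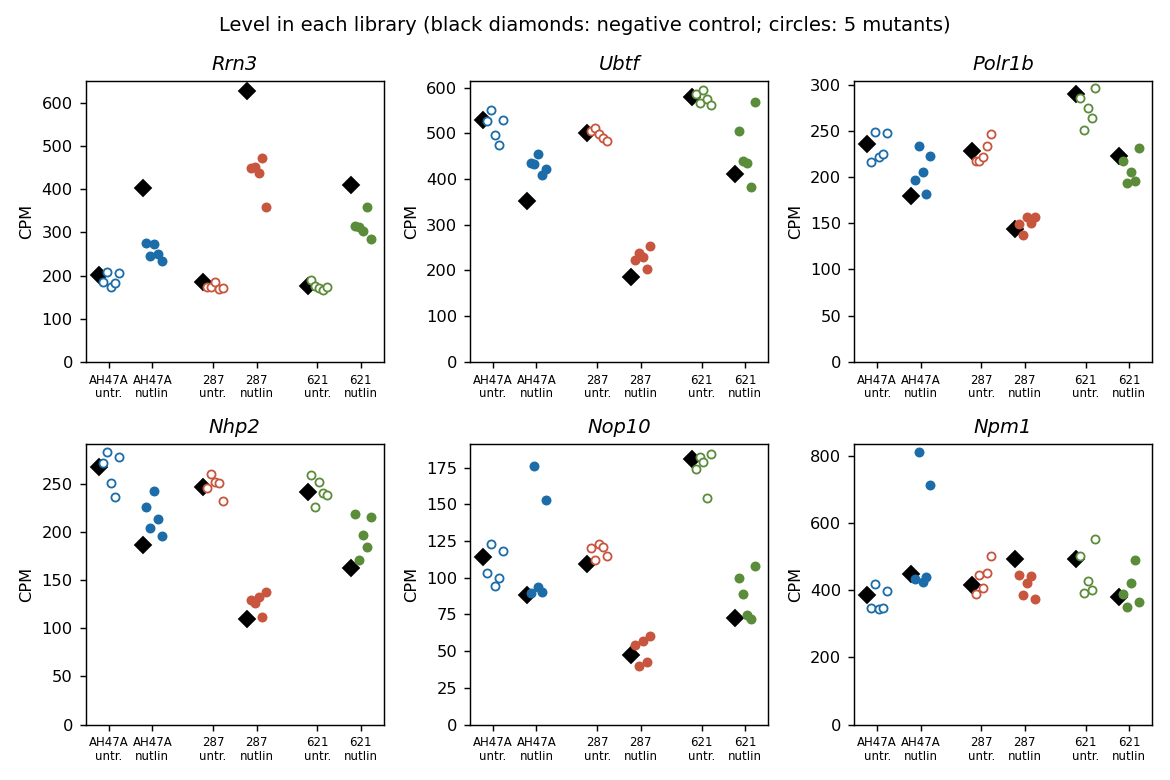
CPM of 6 genes in each of the 36 libraries, by cell line and treatment, on axes that start at 0. Black diamonds are the negative control and circles the 5 mutants (open untreated, filled nutlin). Rrn3 was higher and Nhp2 lower after nutlin in every line, and the high AH47A nutlin values of Nop10 and Npm1 are the I192S and V170M libraries.

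In cells expressing a mutant, more of the genes passed the test when the 5 mutants were averaged. The additive model counts 15 libraries per treatment as independent, but these are 5 constructs in the same cell lines. Constructs of a line share its response, which differed between lines for 60.3% of all genes. The errors may therefore be too small and the calls too many. For the mean of the 5 mutants, 29 of the 44 genes were lower and 4 higher, where 32.9% and 30.6% of all genes were called. The higher ones were Rrn3 at 0.86 ± 0.08 (edgeR adjusted p = 3.27e-09), Nop14 at 0.18 ± 0.05, Nop58 at 0.15 ± 0.04 and Utp20 at 0.12 ± 0.05. Ubtf changed by -0.56 ± 0.09, Nhp2 by -0.52 ± 0.08, Ppan by -0.49 ± 0.06, Rrp1b by -0.43 ± 0.06 and Polr1b by -0.38 ± 0.05. Genes not called in the control but called here included Polr1a at -0.13 ± 0.04 (adjusted p = 0.00922) and Fbl at -0.21 ± 0.08 (adjusted p = 0.0188). Without the 2 AH47A libraries that stood apart, Fbl was at -0.12 ± 0.06 and did not pass (adjusted p = 0.0709), nor did Lyar (-0.23 ± 0.10 with them, adjusted p = 0.0392, and -0.17 ± 0.10 without, adjusted p = 0.14). With all libraries, Ncl (-0.15 ± 0.07, adjusted p = 0.0606) and Npm1 (0.12 ± 0.11, adjusted p = 0.328) did not pass. The members' median was -0.18, against -0.02 over all genes. Without 287, 13 members were called lower, a count given without the share of all genes then called and not read as a trait of the members.

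For single mutants, with 3 libraries per treatment, the number called lower was 6 for G280 (6.7% of all genes were called lower), 8 for I192S (11.2%), 5 for R246Q (9.41%), 13 for R270H (14.3%) and 1 for V170M (2.45%). The members' medians were alike despite these counts, at -0.16, -0.20, -0.16, -0.16 and -0.18 in that order. Rrn3 rose in all 5, by 0.88 (G280), 0.81 (I192S), 0.91 (R246Q), 1.03 (R270H) and 0.65 (V170M), each ± 0.19, with V170M closest to the threshold (edgeR adjusted p = 0.0307). Polr1b was called lower in all 5 and Ubtf in 3 of them, with -0.55 ± 0.20 in G280 (adjusted p = 0.0604) and -0.41 ± 0.20 in V170M (adjusted p = 0.202). Without the 2 AH47A libraries that stood apart, Ubtf in R246Q did not pass (adjusted p = 0.0536, against 0.0492 with them), and 18 members were called lower for I192S, 9 for R246Q and 8 for V170M. The share of all genes called without these libraries is not given here, so these counts are not read as a trait of the members.

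The response of these genes differed between the cell lines, with the most negative median change in 287. In a model with a separate response for each line, where the 6 constructs serve as its replicates, 34 of the 44 genes were lower and 4 higher in 287, where 35.7% and 36.2% of all genes were called. In AH47A 22 were lower (22.2% of all genes) and 3 higher (21.4%), and in 621 16 were lower (28.6%) and 12 higher (26.4%). The members' median log2 change was -0.35 in 287, -0.14 in AH47A and -0.07 in 621, against -0.00, -0.01 and -0.03 over all genes. Summed over the 44 genes, expression in 287 went from 16500 to 17000 CPM untreated to 12800 to 13900 CPM under nutlin, without overlap, while in AH47A it was 16900 to 19600 CPM before and 16200 to 17000 CPM after, and in 621 17300 to 18900 CPM before and 17300 to 19300 CPM after. Abundant genes weigh most in this sum, so it does not describe the 44 genes evenly. Ncl alone went, by the median of the mutants, from 4300 to 2970 CPM in 287 and from 4560 to 5240 CPM in 621. An F test of the response between lines passed for 36 of the 44, where 60.3% of all genes passed.

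**Figure D2:**
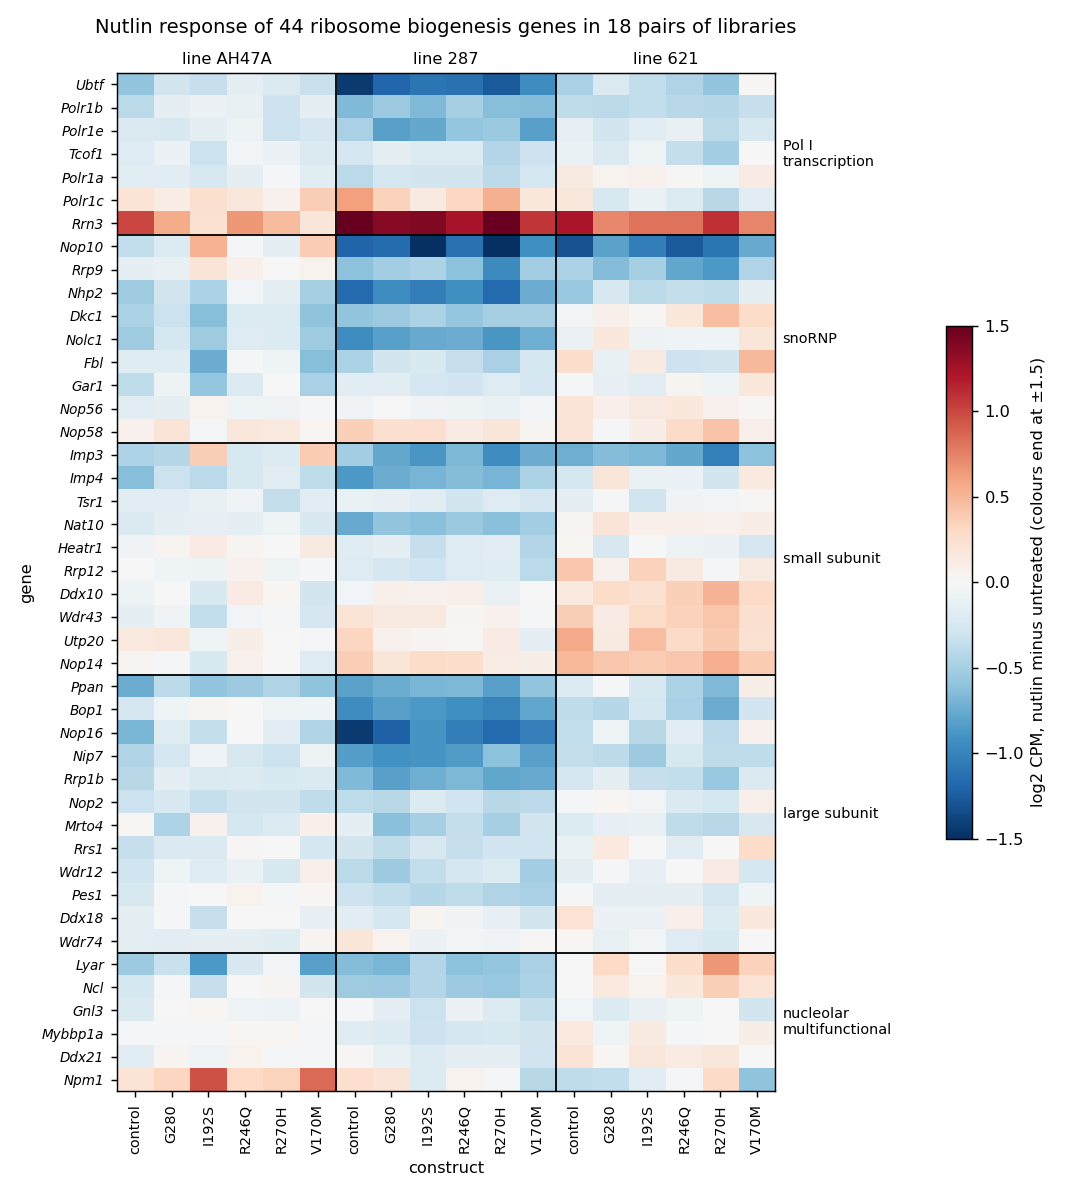
Log2 CPM under nutlin minus untreated for each of the 44 genes (rows, grouped by role) in each of 18 pairs of libraries (columns, 6 constructs in each of 3 lines), with blue lower and red higher after nutlin. The 287 columns are the bluest, Rrn3 is red in all 18, and in 621 a block of small subunit genes is red.

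Ubtf had the smallest p in this F test (edgeR adjusted p = 5.12e-11). In 287 its 6 untreated libraries held 484 to 511 CPM (median 500) and its nutlin libraries 185 to 253 CPM (median 226), a 2.25-fold fall. In AH47A it went from 475 to 551 CPM (median 529) to 351 to 455 CPM (median 429), and in 621 from 562 to 594 CPM (median 578) to 383 to 569 CPM (median 438). The treated values lay below the untreated ones in 287 and AH47A, and in 621 1 treated library, that of V170M, lay within the untreated range. The log2 changes were -1.17, -0.31 and -0.35, each ± 0.05. Rrn3 rose in each line, by 1.39 in 287, 0.52 in AH47A and 0.90 in 621, each ± 0.05 (adjusted p = 7.6e-10 between lines), and its treated range lay above its untreated range in each line. Nhp2 went in 287 from 232 to 260 CPM (median 249) to 110 to 138 CPM (median 127), a log2 change of -1.0 ± 0.06, and changed by -0.33 in AH47A and -0.35 in 621, each ± 0.05 (adjusted p = 1.81e-08 between lines). Nop16 changed by -1.13 ± 0.08 in 287, -0.31 ± 0.07 in AH47A and -0.22 ± 0.07 in 621 (adjusted p = 4.62e-08 between lines). Bop1 changed by -0.89 in 287 and -0.43 in 621 and was not called in AH47A (-0.07, each ± 0.06; adjusted p = 1.59e-08 between lines). Nat10 changed by -0.62 ± 0.04 in 287 and -0.15 ± 0.04 in AH47A, and was at 0.09 ± 0.04 in 621 without a call (adjusted p = 1.46e-09 between lines).

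A few genes had called responses of opposite sign in different lines. These were 6 of the 44, Dkc1, Wdr43, Rrp12, Ncl, Ddx21 and Lyar, and 7.3% of all genes did so. Ncl in 287 fell from 4140 to 4460 CPM (median 4310) to 2890 to 3250 CPM (median 2980), while in 621 it went from 4430 to 4910 CPM (median 4590) to 4570 to 5840 CPM (median 5200). The 287 groups were far apart and the 621 groups overlapped. The log2 changes were -0.52 in 287, -0.15 in AH47A and 0.15 in 621, each ± 0.05, and without the 2 libraries that stood apart the AH47A change was -0.11 ± 0.06 and did not pass (adjusted p = 0.152). Lyar changed by -0.57 in 287, -0.47 in AH47A and 0.27 in 621, each ± 0.08. Dkc1 changed by -0.53, -0.41 and 0.16 in the same order, each ± 0.06. In the small subunit class, Nop14 (0.44 ± 0.05), Utp20 (0.35 ± 0.06), Ddx10 (0.31 ± 0.05), Wdr43 (0.30 ± 0.05) and Rrp12 (0.17 ± 0.07) rose in 621 and Imp3 (-0.75 ± 0.11) was the only one called lower, while the large subunit class had 7 of 12 lower and 0 higher in that line. Without the R270H construct, the number of members called higher in 621 was 7, a count given without the share of all genes then called.

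Some of the 44 moved the same way everywhere. Polr1b, Polr1e, Ubtf, Tcof1, Nhp2, Nop16, Nip7, Ppan and Rrp1b were called lower in all 3 lines, which makes 9 of 44 where 10.6% of all genes were (Tcof1 was not called in AH47A without the 2 libraries that stood apart, adjusted p = 0.282), and Rrn3 was called higher in all 3, as were 12.3% of all genes. Taking each construct and line as a pair, Polr1b, Polr1e, Tcof1, Nhp2, Nip7 and Rrp1b were lower after nutlin in all 18 pairs and Rrn3 was higher in all 18. The share of all genes that did so was not counted, so this is a description of single genes. The Rrn3 differences ran from 0.18 to 1.76 with a median of 0.91. Ubtf was lower in 17 pairs (median -0.47). By pair, 34 to 39 of the 44 genes were lower in 287, 29 to 36 in AH47A and 17 to 30 in 621. Of all genes tested, 49% to 53% were lower in a pair.

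**Figure D3:**
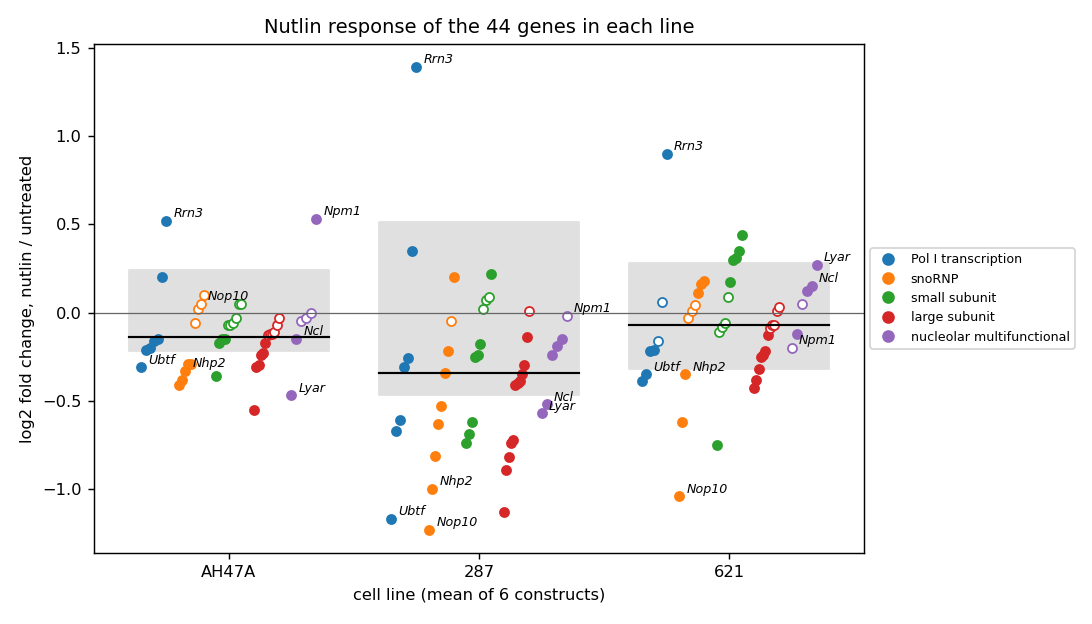
Log2 fold change of each of the 44 genes in each line (mean over 6 constructs), coloured by role and filled where the adjusted p was under 0.05. The black bar is the members' median and the grey band the interquartile range of all genes tested. The members' median is -0.35 in 287, -0.14 in AH47A and -0.07 in 621, and Rrn3 is the highest filled point in 287 and 621.

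The 2 AH47A libraries that stood apart changed the calls of single genes in that line. With all 6 constructs, Npm1 was called higher in AH47A (0.53 ± 0.14, edgeR adjusted p = 0.00418), and without them it was at 0.15 ± 0.08 (adjusted p = 0.129). Polr1c was at 0.20 ± 0.07 with them (adjusted p = 0.0269) and 0.07 ± 0.07 without (adjusted p = 0.466). Fbl was called lower with them (-0.29 ± 0.10, adjusted p = 0.028) and was at -0.05 ± 0.07 without (adjusted p = 0.671). Rrs1, a factor that brings the 5S particle to the large subunit, went from -0.17 ± 0.05 (adjusted p = 0.0114) to -0.14 ± 0.06 (adjusted p = 0.0889). Ncl and Tcof1 lost their calls as well. In the other direction, Imp3 was at -0.07 ± 0.11 with them and called at -0.36 ± 0.08 without (adjusted p = 0.000685), and Mrto4, a factor that prepares the ribosomal stalk, at -0.11 ± 0.10 and called at -0.32 ± 0.09 (adjusted p = 0.00697). Nop56 (-0.14 ± 0.05), Wdr12 (-0.23 ± 0.08), Wdr74 (-0.26 ± 0.08) and Gnl3 (-0.16 ± 0.04) were also called lower only without them. The counts in AH47A became 24 lower and 1 higher, the latter being Rrn3.

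Before treatment, the level of 29 of the 44 genes differed between the lines by an F test, where 79.3% of all genes did. Utp20 was the clearest (edgeR adjusted p = 2.88e-14): 287 held 523 to 553 CPM (median 538), AH47A 264 to 329 CPM (median 306) and 621 284 to 332 CPM (median 320). The 287 range lay above both others, which overlapped. Gar1 was lowest in 287, at 118 to 133 CPM (median 128) against 180 to 224 CPM (median 210) in AH47A and 177 to 191 CPM (median 181) in 621. Its log2 difference of 287 from AH47A was -0.71 ± 0.05. Tcof1 (-0.49 ± 0.05) and Nolc1 (-0.61 ± 0.07) were also lower in 287 than in AH47A, and Wdr74, a factor of large subunit maturation, was 0.75 ± 0.08 higher in 621 than in 287. Nat10 was highest in AH47A, with -0.33 ± 0.04 in 287 and -0.30 ± 0.04 in 621 relative to it. Of the reference genes, Ubtf (adjusted p = 0.000904), Polr1a (9.89e-06), Ncl (0.00116) and Rrn3 (0.0301) differed between lines, and Fbl (0.0856) and Npm1 (0.136) did not pass. Without the 2 AH47A libraries, which share the model's estimate of spread, Fbl (0.00265) and Npm1 (0.000588) passed.

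Expression of a mutant was not associated with a called change in any of the 44 genes in the additive model. Relative to the control, the mean of the 5 mutants gave 0 of 44 calls untreated (0.0162% of all genes), 0 under nutlin (0.998%) and 0 for the difference in response (0%). At an unadjusted p under 0.05 there were 0, 3 and 1 members, and DESeq2 called 0, 2 and 0. The log2 differences lay between -0.11 and 0.06 untreated and between -0.52 and 0.28 under nutlin. The 5 comparisons of single mutants share their 3 control libraries within a treatment and are not independent of each other.

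Under nutlin, Rrn3 had the smallest p of the 44. Its control values of 404, 628 and 410 CPM (AH47A, 287 and 621) compare with 235 to 473 CPM over the 15 mutant libraries (median 312), and within each line the control lay above all 5 mutants. The log2 difference was -0.52 ± 0.14 (edgeR adjusted p = 0.0638), lower in all 5 mutants, from -0.41 ± 0.19 for R270H to -0.71 ± 0.19 for V170M (adjusted p = 0.0848). Utp20 was also highest in the control of each line, at 355, 675 and 478 CPM against 262 to 593 CPM (log2 -0.27 ± 0.08, adjusted p = 0.0979). Nhp2 was lowest in the control of each line, at 186, 110 and 163 CPM against 112 to 243 CPM (0.24 ± 0.13, adjusted p = 0.395). Over all genes, 5.19% lay above and 4.12% below all mutants in each of the 3 lines under nutlin, so 2 and 1 of 44 are near that background. Untreated, 0 of the 44 lay above and 0 below, where 0.495% and 0.56% of all genes did. Rrp12 (-0.22 ± 0.11), Polr1c (-0.23 ± 0.11), Imp4 (0.20 ± 0.12), Ubtf (0.25 ± 0.16), Fbl (-0.16 ± 0.13), Ncl (0.08 ± 0.12), Polr1a (-0.04 ± 0.07) and Npm1 (0.06 ± 0.18) were not called.

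Giving each line its own response to nutlin narrowed the errors. The additive model counts differences in response between lines as spread between libraries, although mutants and control are compared within the same lines. Its common coefficient of variation was 16%, against 9.68% with a response for each line. For genes whose response differed between lines, such as Rrn3 and Ubtf, its errors may be too large and its calls too few. In that model Rrn3 was lower in the mutants under nutlin by -0.53 ± 0.05 (edgeR adjusted p = 4.38e-07) and Utp20 by -0.27 ± 0.06 (adjusted p = 0.00227). Polr1c was lower at -0.22 ± 0.08 (adjusted p = 0.0454), Ubtf higher at 0.26 ± 0.06 (adjusted p = 0.00224) and Nhp2 higher at 0.24 ± 0.06 (adjusted p = 0.00865). These were 5 of the 44, where 16% of all genes were called. For the difference in response, Rrn3 (-0.48 ± 0.08, adjusted p = 0.00306) and Ubtf (0.28 ± 0.08, adjusted p = 0.0448) passed, 2 of 44 where 3.38% of all genes did. In the additive model the same differences were -0.47 ± 0.20 (adjusted p = 0.853) and 0.27 ± 0.22 (adjusted p = 0.86), so the calls rest on the choice of model. Without the 2 AH47A libraries that stood apart, the model with a response for each line called 9 of the 44 under nutlin and 3 for the difference in response, the third being Nhp2 (0.27 ± 0.08, adjusted p = 0.0372). Other members with the smallest p for the response difference, Utp20 (-0.23 ± 0.12), Imp4 (0.27 ± 0.17), Polr1c (-0.24 ± 0.16), Nop16 (0.33 ± 0.25) and Nhp2 (0.24 ± 0.18), were not called in the additive model.

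**Figure D4:**
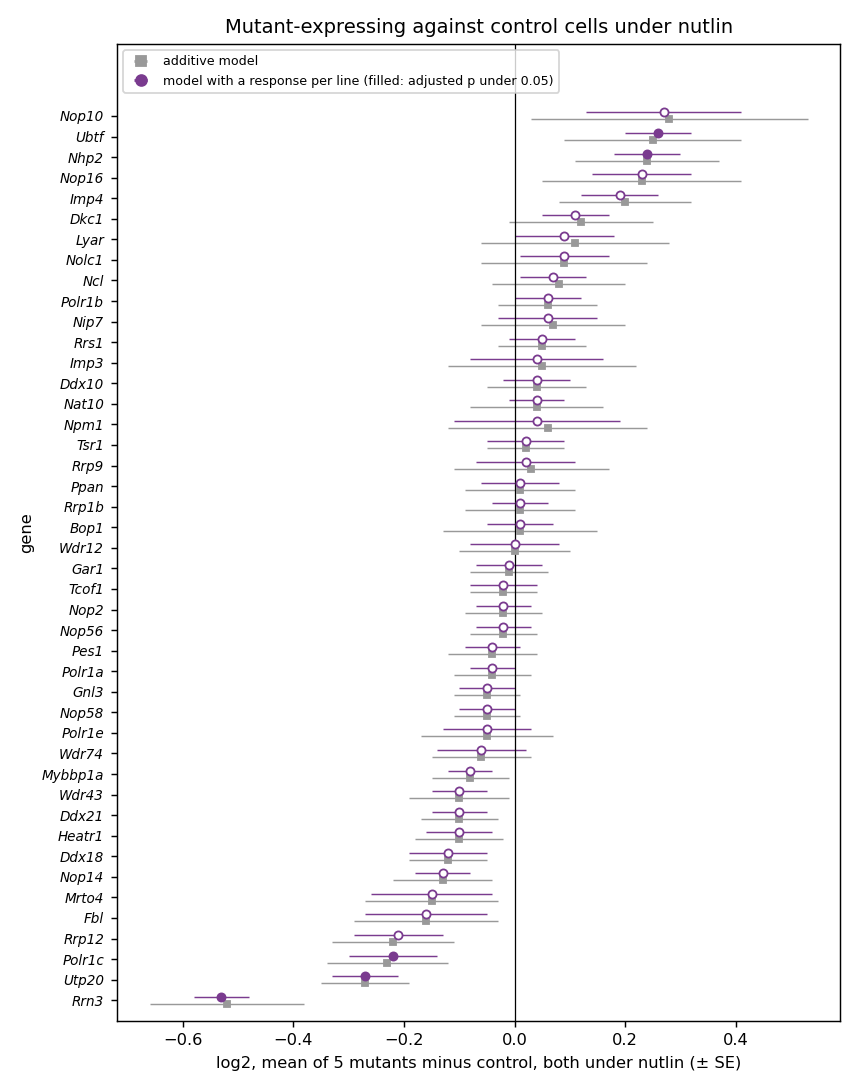
Log2 difference under nutlin, mean of 5 mutants minus control, for the 44 genes, with bars of ± 1 SE. Grey squares are the additive model, in which 0 were called, and purple circles the model with a response for each line, filled for the 5 called. Rrn3 lies lowest in both, at -0.52 and -0.53.

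Single mutants gave 0 of 44 calls in each comparison in the additive model. Untreated, 0.00812% of all genes were called for G280, I192S, R246Q and V170M and 0.0162% for R270H. The genes with the smallest p in the untreated mean were Wdr12 (-0.11 ± 0.10), Ddx18 (-0.06 ± 0.07), Ddx21 (-0.05 ± 0.07), Ppan (-0.08 ± 0.10), Rrs1 (-0.06 ± 0.08) and Heatr1 (-0.06 ± 0.08), all with an edgeR adjusted p of 1. Under nutlin 0.0162% of all genes were called for G280 and I192S, 0.0325% for R246Q, 0.00812% for R270H and 0.479% for V170M. In the difference of response, 0% were called for each mutant. An F test among the 5 mutants called 0 of 44 in response (0% of all genes) and 0 untreated (0.0325%), with 0 members under an unadjusted p of 0.05 in either and 0 called by DESeq2. Gar1 had the smallest p in both, 0.397 in response and 0.55 untreated.

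Beyond the 44, 108 other ribosome biogenesis genes showed called responses in both directions. In control cells 16 were higher and 23 lower, with a median of -0.14, where 21.9% of all genes were higher and 20.8% lower. The 23 of 108 called lower are near that background. By line, 22 were higher and 66 lower in 287 (median -0.23; 36.2% and 35.7% of all genes). In AH47A 10 were higher and 31 lower (median -0.06; 21.4% and 22.2% of all genes), and 5 were higher without the 2 libraries that stood apart. In 621 37 were higher and 33 lower (median 0.03; 26.4% and 28.6% of all genes). The Pol I subunit gene Cd3eap (also called Polr1g) fell in control cells from 60.7, 53.2 and 60.7 CPM to 29.0, 13.3 and 27.6 CPM, without overlap. Its log2 change was -1.37 ± 0.23 (edgeR adjusted p = 8.23e-05), a larger fall by estimate than that of any Pol I gene of the 44. Nufip1, a snoRNP assembly factor, rose by 0.83 ± 0.16 (adjusted p = 0.000341), Utp14a, a processome protein, by 0.38 ± 0.07 (0.000251), Nmd3, the export adaptor of the large subunit, by 0.80 ± 0.15 (0.000197) and Exosc10, the nuclear exosome nuclease, by 0.31 ± 0.10 (0.0118). In the additive model, Utp14a was the only one of the 108 called between the mutants' mean and the control under nutlin (-0.25 ± 0.06, edgeR adjusted p = 0.0349), where 0.998% of all genes were called. In the model with a response for each line, 14 of the 108 were called, where 16% of all genes were.

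Genes for cytosolic ribosomal proteins, 78 of 79 of which were tested, were also counted by line. Their control response had 3 called higher and 2 lower (21.9% and 20.8% of all genes), with a median of 0.09 and Rpl31 called lower at -0.58 ± 0.16 (edgeR adjusted p = 0.00692). In 621 50 were called lower and 3 higher (median -0.28), where 28.6% of all genes were lower and 26.4% higher. In 287 28 were higher, near the 36.2% of all genes, and 4 were lower (35.7%). In AH47A 27 were higher (21.4% of all genes) and 11 lower (22.2%), and without the 2 libraries that stood apart 5 were higher and 8 lower. Those called higher in 621 then numbered 6. Many of these genes have processed pseudogenes, and their counts are uncertain. Of the MYC network, Myc was called higher in control cells, in counts that cannot tell the lines' transgene from the cells' own gene. It stood at 3850, 2430 and 3920 CPM untreated and 4000, 3430 and 5620 CPM under nutlin (0.35 ± 0.14, adjusted p = 0.039), and it changed by 0.48 in 287, 0.38 in 621 and 0.04 in AH47A, each ± 0.07, the last without a call. Mxd1, which codes for a MAX partner that represses E-box genes, rose by 1.83 ± 0.32 in control cells (adjusted p = 0.000109), and by 2.05 ± 0.13 in 287, 0.96 ± 0.15 in AH47A and 1.03 ± 0.15 in 621.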

How the data were processed

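RNA of 36 cultures was sequenced, and the deposited files hold raw gene counts (27179 mouse genes). The authors used bcl2fastq 1.8.4 and featureCounts on build mm10 (GRCm38), per the submitters' processing notes. Aligner, annotation and strand setting were not given in the sources used here, so reads of overlapping antisense genes cannot be told apart.

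Genes kept by filterByExpr (minimum count 10) were tested, 12321 in all, holding 99.94% of counts. edgeR 4.0.16 in R 4.3.3 fitted a robust quasi-likelihood model after TMM scaling, with terms for the 12 groups and, additively, the cell line (all 36 libraries). Questions about lines used a second model that adds line by treatment, and applying it to the other comparisons is an alternative. The Benjamini-Hochberg adjustment ran over all genes tested, and a call is an adjusted p under 0.05. P-values measure only the spread between these libraries, since the labels name no repeat culture. DESeq2 1.42.0, other filters, scaling and left-out libraries were alternatives. The model code was run on simulated counts with additive line effects and a common spread. That run held no line-specific response, so it checks the code and not the choice of model. CPM and RPKM were computed here, RPKM with the deposited gene lengths, and pair differences are of log2 CPM with a prior count of 2. Libraries were paired by the line in their labels. Libraries of the same line deviated together from their group means in all 198 pairs (r from 0.629 to 0.929). Promoters came from RefSeq (GRCm38.p6), 38 of 44 genes matching.

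The 44 genes and all lists were chosen with earlier results of these data known. Named genes were, per comparison, the members with the smallest p (for the control response the 2 called per role with the smallest adjusted p and every member called higher), 6 reference genes (Polr1a, Ubtf, Rrn3, Ncl, Npm1 and Fbl), and the gene with the smallest adjusted p of each other list. Other members are named to account for all 44.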

Additional observations from a re-analysis of the deposited data

Results flagged for a closer look

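The nutlin response differed between the 3 cell lines for 36 of the 44 genes by an F test on the term for line by treatment, where 60.3% of all genes tested passed. The 6 genes with the smallest adjusted p (edgeR, constructs as replicates within a line) were Ubtf (5.12e-11), Rrn3 (7.6e-10), Nat10 (1.46e-09), Bop1 (1.59e-08), Nhp2 (1.81e-08) and Nop16 (4.62e-08). In each of them the change was largest in 287, at -1.17, 1.39, -0.62, -0.89, -1.0 and -1.13 on the log2 scale in that order. With 1 culture of a construct per line and treatment, a difference between lines and one between the cultures of those lines cannot be told apart.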

How the results depend on the processing

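No result changed sign as a called value under the alternatives run. The member counts below are given without the share of all genes called under each alternative. Members lower in the control response numbered 13, but 2 with no replicate block, 25 with the block and a line by treatment term, and 5 to 13 with 1 line or 1 control library left out. Members higher numbered 4, but 2 with no filter on low counts, 1 without the block, 1 with only the groups compared and 1 to 4 with a line or control library left out. Members lower in the mean of 5 mutants numbered 29, but 17 without the block and 13 to 26 without 1 line. Under nutlin, 0 members differed between mutants and control, but 5 did with the line by treatment term, 4 with only the groups compared, 2 by DESeq2 and 0 to 1 with a line or control library left out. The response difference went from 0 to 2 with that term. With that term and without the AH47A nutlin libraries of I192S and V170M, a pair of choices set after seeing the data, these counts were 9 under nutlin and 3 for the response difference. Members higher in 621 were 7 to 10 with a construct left out, and members higher in AH47A 1 without the AH47A nutlin libraries of I192S and V170M. For single mutants, the count of lower members was 0 (G280), 0 (I192S), 0 (R246Q), 1 (R270H) and 0 (V170M) without the block, 19, 21, 17, 20 and 18 with the line by treatment term, and 0, 0, 1, 2 and 0 with only the groups compared. No filter gave 2 for G280, 3 for R246Q and 0 for V170M, DESeq2 size factors gave 3 for R246Q and DESeq2 gave 2 for V170M. Leaving out 1 line gave 0 to 6 for G280, 1 to 8 for I192S, 0 to 9 for R246Q, 2 to 12 for R270H and 0 to 8 for V170M. Without the 2 AH47A libraries the counts were 18 (I192S), 9 (R246Q) and 8 (V170M). The cause was not tested for any of these. DESeq2 size factors gave medians of all genes between -0.01 and 0.00. The test with only the groups compared was not run for the response difference, which uses all groups. Of the alternative values of counts, 174 kept within 1.5 times the reported count and 59 did not. Every member had at least 170 counts in each library. The precision that depth allows was not tested by down-sampling.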
